A study of Mus musculus with 3 samples.

Results

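Binding of the forkhead transcription factor Foxf2 was described at 10 mouse genes of tendon and elastic matrix, namely Scx, Mkx, Egr1, Egr2, Tnc, Postn, Fbn1, Fbn2, Eln and Fn1. A peak was assigned to a gene when the protein-coding transcription start site (TSS) nearest to the peak's midpoint belonged to that gene. Of 25704 peaks on the assembled chromosomes, 62 were assigned to these genes. Mkx, Tnc, Postn, Fbn2, Eln and Fn1 held all 62, so 6 of the 10 genes had at least 1 peak. Scx, Egr1, Egr2 and Fbn1 had none, although 8 peaks lay inside the transcribed body of Fbn1 and were assigned to neighbouring genes. Of all 21938 protein-coding genes, 37.3% were nearest to at least 1 peak. In genes sorted into deciles by the room around them, the deciles that hold these 10 genes had a peak at 58.9% of genes on average over the 10, close to the 6 of 10 found.

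The peaks came from chromatin immunoprecipitation and sequencing (ChIP-seq) with an anti-FLAG antibody. All libraries, input included, were from tongues of E12.5 mouse embryos of genotype Foxf2FLAG/FLAG, in which both copies of the endogenous gene carry a 3xFLAG tag made by CRISPR/Cas9. The groups were 2 anti-FLAG ChIP libraries and 1 input library, and 75 tongues are stated on each label without a statement of whether they were shared. Whole tongues mix mesenchyme, muscle precursors, epithelium, vessels and nerves, and a peak list does not show in which of these cells a site was bound. No ChIP from untagged tongue is among the samples used here. The deposited list gave 1 score per peak and nothing per library, so the agreement of the ChIP libraries, their difference from the input and their depth could not be read from it. Every value below is therefore a description of 1 list, with no test. The 95% intervals given with shares are exact (Clopper-Pearson) and reflect the number of peaks alone. Gene expression was not measured, so the tissue could not be checked against its markers, and assignment to the nearest TSS does not show which gene a site acts on.

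Tendon cells arise in connective tissue between muscle and its attachment and lay down aligned collagen. Scx, a basic helix-loop-helix factor, marks tendon progenitors early, Mkx is a homeobox factor needed for tendon maturation, and the zinc finger factors Egr1 and Egr2 act in tendon cells on collagen genes. Tnc and Postn encode matricellular proteins, which modulate how cells attach to matrix, and Fn1 encodes fibronectin, the adhesive glycoprotein on which other fibres assemble. Fibrillins, the products of Fbn1 and Fbn2, form microfibrils, and elastin, the product of Eln, is deposited on them. The intrinsic muscles of the tongue insert into connective tissue of neural crest origin, the tissue in which Foxf2 is known to act in the face.

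Forkhead proteins recognise a short sequence, searched here on either strand in 4 forms: ATAAACA was the first form, ATAAATA was the second, GTAAACA was the third and GTAAATA was the fourth. The 200 bp around the midpoint of 7 peaks are shown, in mm10 coordinates, because they are the 2 highest-scored peaks of Postn and of Tnc, the highest of Eln and of Fn1, and the Eln peak nearest to its TSS. Capitals mark the forkhead core as it reads on the plus strand, where a match on the minus strand appears as its reverse complement. The Postn window at 54406638, centred on the highest-scored peak of that gene, and the Eln window at 134748303, beside the Eln TSS, hold no capitals.
Postn, chr3:54406638-54406837, + strand: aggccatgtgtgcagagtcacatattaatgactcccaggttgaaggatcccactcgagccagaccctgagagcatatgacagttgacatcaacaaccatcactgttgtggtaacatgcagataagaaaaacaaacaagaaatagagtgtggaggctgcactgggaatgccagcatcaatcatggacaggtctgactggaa
Postn, chr3:54417078-54417277, + strand: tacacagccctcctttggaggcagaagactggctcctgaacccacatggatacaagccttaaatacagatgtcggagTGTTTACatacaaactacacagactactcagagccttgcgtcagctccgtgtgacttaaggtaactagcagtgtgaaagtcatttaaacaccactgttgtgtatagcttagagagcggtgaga
Tnc, chr4:64437735-64437934, + strand: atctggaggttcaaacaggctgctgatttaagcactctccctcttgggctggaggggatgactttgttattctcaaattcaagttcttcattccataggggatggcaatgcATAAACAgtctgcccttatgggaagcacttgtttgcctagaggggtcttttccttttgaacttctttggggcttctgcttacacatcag
Tnc, chr4:63983154-63983353, + strand: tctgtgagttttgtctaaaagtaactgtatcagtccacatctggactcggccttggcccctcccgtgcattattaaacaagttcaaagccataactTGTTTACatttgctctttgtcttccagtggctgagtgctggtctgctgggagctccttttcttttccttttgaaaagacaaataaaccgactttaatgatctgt
Eln, chr5:134728545-134728744, + strand: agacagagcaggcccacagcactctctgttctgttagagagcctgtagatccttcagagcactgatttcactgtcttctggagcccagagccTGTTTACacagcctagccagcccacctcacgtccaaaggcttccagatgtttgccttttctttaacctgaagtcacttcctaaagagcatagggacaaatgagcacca
Eln, chr5:134748303-134748502, + strand: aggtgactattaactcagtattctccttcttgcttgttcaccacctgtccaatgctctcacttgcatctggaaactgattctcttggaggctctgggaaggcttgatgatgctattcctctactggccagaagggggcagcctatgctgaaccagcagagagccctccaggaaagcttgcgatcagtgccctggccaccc
Fn1, chr1:71807645-71807844, + strand: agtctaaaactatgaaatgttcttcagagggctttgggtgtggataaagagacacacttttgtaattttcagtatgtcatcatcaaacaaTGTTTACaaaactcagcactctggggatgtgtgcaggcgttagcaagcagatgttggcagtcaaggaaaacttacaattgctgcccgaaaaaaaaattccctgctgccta
GTAAACA is the form also searched alone, as the strict form. Its matches in peaks of these 4 genes are set out next with 5 bases on either side, read 5' to 3' on the strand of the match, with the core in capitals, to show what surrounds it.
Tnc, chr4:63983245-63983261, - strand: caaatGTAAACAagtta
Tnc, chr4:64310939-64310955, - strand: tgtaaGTAAACAaagac
Tnc, chr4:64310967-64310983, - strand: agaaaGTAAACAcataa
Tnc, chr4:63963648-63963664, - strand: acagtGTAAACAaagag
Postn, chr3:54417150-54417166, - strand: tgtatGTAAACActccg
Postn, chr3:54478166-54478182, - strand: cagctGTAAACActctt
Eln, chr5:134728632-134728648, - strand: gctgtGTAAACAggctc
Fn1, chr1:71807730-71807746, - strand: gttttGTAAACAttgtt
Of these 8 matches 4 are in Tnc peaks, 2 of them in a single peak, and 2 are in Postn peaks, with 1 each in Eln and Fn1. All 8 are on the minus strand. GTAAACA also occurred in peaks of Mkx, on both strands, and of Fbn2, on the plus strand, whose sequences are not shown.

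Peaks were most numerous at Tnc, with 22, followed by Fbn2 with 11, Postn with 10, Mkx with 8, Fn1 with 7 and Eln with 4. The median over the 10 genes was 5.5 peaks, against 0 over all protein-coding genes and 2 over those with at least 1 peak. Tnc, Fbn2 and Postn each had 10 or more, as 2.26% of all protein-coding genes did. A gene far from its neighbours has more room for peaks, so counts were also set against territory, the bases nearer to a TSS of that gene than to any other protein-coding TSS. The 10 territories summed to 2237.8 kb and held 2.77 peaks per 100 kb, against 0.943 per 100 kb over all protein-coding genes. Postn had 3.73 peaks per 100 kb, Eln 3.67, Tnc 3.41, Fbn2 3.25, Mkx 3.00 and Fn1 2.14. Genes of the same decile of territory length pooled to 0.809 per 100 kb for the decile of Tnc, Fbn2 and Fn1, 1.33 for that of Postn and Mkx, and 1.13 for that of Eln. At least 1 peak was found at 81.5% of the genes in the first of these deciles, 72.7% in the second and 57.2% in the third, and at 34.5% in the decile of Fbn1. The densities of the 6 genes with a peak lay between 2.14 and 3.73 per 100 kb, and their counts between 4 and 22. The other 4 of the 10 genes, with no peak, are left out of that range, whereas the decile pools include genes without a peak.

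**Figure D1:**
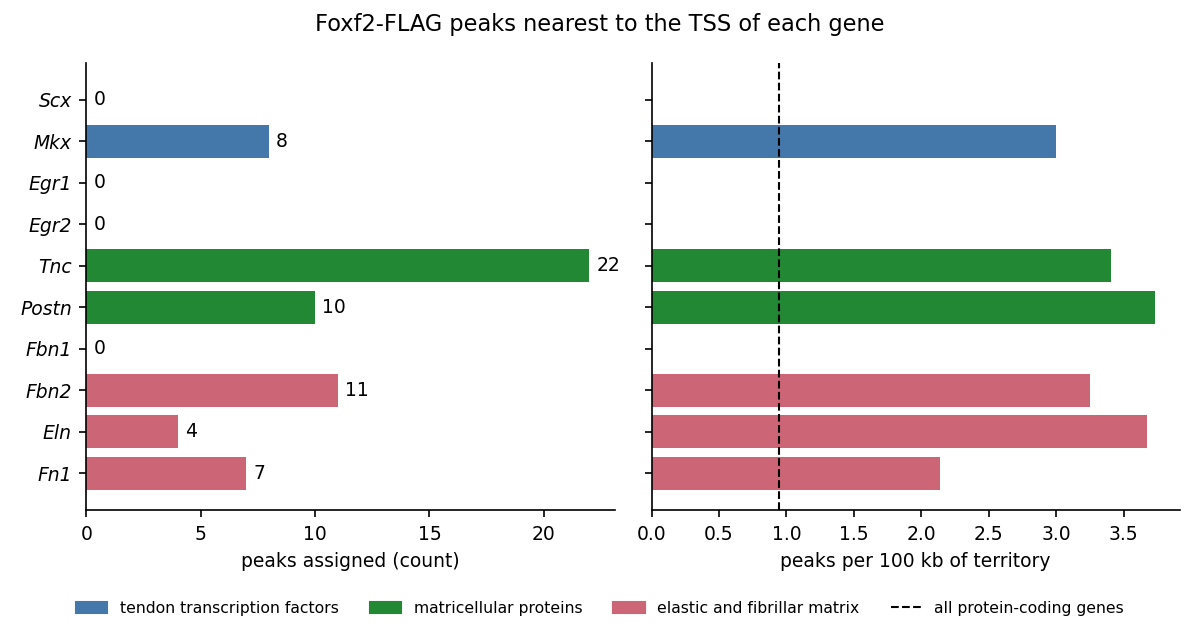
Peaks assigned to each of the 10 genes (left, count) and peaks per 100 kb of territory (right), coloured by the role of the gene product; the dashed line marks 0.943 per 100 kb over all protein-coding genes. Tnc has the longest bar on the left with 22 peaks, while the 6 genes with peaks lie between 2.14 and 3.73 per 100 kb on the right, and Scx, Egr1, Egr2 and Fbn1 have no bar.

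Among the transcription factors, Mkx alone had assigned peaks. Its 8 peaks scored 14.5, 15.2, 22.0, 22.8, 29.1, 29.3, 41.9 and 112.2, on the authors' own score per peak, whose median over the remaining list was 16.2. The highest of these, in an intron 46.51 kb downstream of the Mkx TSS (chromosome 18, 6958161 to 6958373), ranked 98 in the list and was also the highest of all 62. It held 1 GTAAACA match, 2 bp from the midpoint. A second Mkx peak (7004687 to 7004899, score 29.3) was centred 13 bp upstream of the TSS and held 1 match of the form GTAAATA. No other peak assigned to these 10 genes lay within 1000 bp of the TSS of its gene. Beyond the 3' end of the gene, 3 further peaks (22.8, 29.1 and 41.9) stood between 104.1 and 116.8 kb downstream. Of the remaining 3, between 73.82 and 112.9 kb upstream, the farther 2 lay inside the neighbouring gene Armc4.

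Scx, Egr1 and Egr2 had neither an assigned peak nor a peak within 50 kb of a TSS. Scx is a short gene (chromosome 15, 76457520 to 76459449) with a territory of 43.6 kb, of a size at which 25.2% of genes had a peak. The peak nearest to Scx was 64.76 kb away at the promoter of Scrt1 (score 53.9, 76522172 to 76522384) and held no forkhead core. Egr1 (chromosome 18, 34859823 to 34864984) had a territory of 46.4 kb in the same decile. Its nearest peak scored 14.6 and lay 82.51 kb away, in a coding exon 246 bp from a TSS of Kdm3b. Egr2 (chromosome 10, 67537869 to 67542188) had more room, 132 kb, of a size at which 57.2% of genes had a peak. Its nearest peak, with 1 forkhead match and a score of 20.6, lay 105.8 kb away and was assigned to Ado. The absence of a peak in the list is not a measurement of no binding, since the caller's threshold and the depth are unknown.

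Tnc, which encodes tenascin-C, had peaks spread over a wide region. The gene runs on the minus strand of chromosome 4 between 63959785 and 64047015, and the next protein-coding TSS upstream, that of Pappa, is 1077 kb away. Tnc has 2 annotated TSSs, and each distance is to the nearer of them. Of its 22 peaks, 17 were upstream, the farthest 536.5 kb from the TSS at the 5' end, and 5 were inside the gene. For those 5 the nearer TSS is the one inside the gene, so they lie farther from the 5' end than the distance given. None lay within 10 kb of either TSS. The scores ran between 10.9 and 65.1 with a median of 16.65, and 13 were at or above the list's median. The highest was intergenic, 390.8 kb upstream (64437729 to 64437941, score 65.1), with an ATAAACA match 14 bp from the midpoint. The next, with a score of 56.5, was in an intron (63983148 to 63983360), 37.47 kb downstream of the TSS inside the gene. It had GTAAACA 1 bp from the midpoint. It was followed by an intergenic peak 264 kb upstream with 3 forkhead matches (64310878 to 64311090, score 44.0) and a peak with none in an intron of the noncoding transcript 8030451A03Rik, 20.55 kb upstream (64067457 to 64067669, score 42.7). In all, 13 of the 22 held the forkhead core, where 72.5% of all peaks in the list did. The intronic peak at 56.5 formed a group with peaks of 23.2 and 16.7 over 3.48 kb, and the lowest of these 3 lay 82 bp from a TSS of 8030451A03Rik, inside Tnc. Of the 5 peaks inside Tnc, 3 also lay in introns of that noncoding gene.

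Postn, which encodes periostin, had the group with most peaks, counting as a group those no more than 10 kb from the next. The gene lies on the plus strand of chromosome 3 between 54361109 and 54391037. Beyond its 3' end, 6 peaks stood within 24.4 kb, between 42.83 and 67.25 kb downstream of the TSS, with scores of 16.2, 24.3, 26.9, 28.0, 60.0 and 107.0. The group was intergenic. The highest (54406632 to 54406844, score 107.0) ranked 118 in the list and held no forkhead core, whereas the other 5 held 1 match each. The second highest (54417072 to 54417284, score 60.0) had the GTAAACA form 20 bp from the midpoint. The other 4 Postn peaks scored 10.7, 12.4, 15.9 and 18.9. The peak at 10.7 was the only one inside the gene, 11.59 kb downstream of the TSS with 2 forkhead matches, and the 1 upstream peak, at 18.9, lay in an intron of Trpc4.

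**Figure D2:**
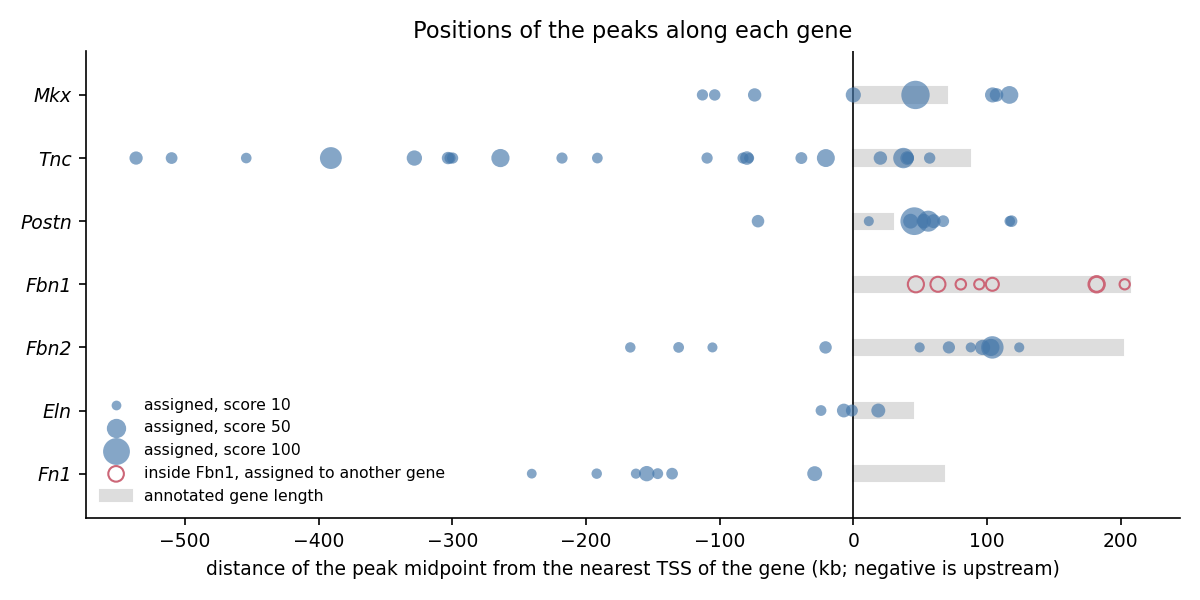
Distance of each peak midpoint from the nearest TSS of the gene (kb, negative is upstream), with circle area growing with the peak score; grey bars show the annotated gene length downstream of the TSS. Tnc peaks reach 536.5 kb upstream, 6 Postn peaks stand together beyond the gene's 3' end, and Fn1 peaks are all upstream. The open circles are the 8 peaks inside Fbn1 that were assigned to other genes. The 5 circles inside Tnc are measured from a TSS within the gene. They are therefore drawn nearer to the start of the grey bar than they lie to the gene's 5' end.

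The fibrillin genes differed in their assigned counts, while similar numbers of peaks lay within their bodies. Peaks within bodies of that length were not counted over all genes. Fbn2 (chromosome 18, minus strand, 58008623 to 58210487) had 11 assigned peaks, of which 7 were in its introns. Fbn1 (chromosome 2, minus strand, 125300594 to 125507993) had none assigned but held 8 in its introns, over a gene of 207 kb, against 202 kb for Fbn2. The TSS of the protein-coding annotation Gm9913 lies 1.296 kb from a TSS of Fbn1 and leaves Fbn1 a territory of 60.8 kb. Of the 8 peaks, 5 were assigned to Gm9913 and 3 to Dut, beyond the 3' end. Their scores were 11.0, 11.4, 12.0, 20.5, 28.6, 28.6, 33.6 and 34.3, with a median of 24.55. They lay between 46.8 and 203 kb from the Fbn1 TSS, and 6 of them held the forkhead core. In Fbn2 the intronic peaks scored 10.7, 10.9, 11.1, 17.8, 29.6, 38.7 and 68.9. The 3 highest of those stood together, between 96.7 and 104.0 kb downstream of the TSS (58106393 to 58113893), and each held 1 forkhead match. The 4 upstream peaks of Fbn2 scored 10.8, 12.0, 13.0 and 18.6. In all, 10 of the 11 assigned Fbn2 peaks held the core, the exception being the upstream peak of 13.0. The core was in 72.5% of all peaks in the list, and differences of single genes from that share were not tested. Both fibrillin genes thus had intronic peaks and none within 10 kb of a TSS.

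Eln had its peaks near the gene and Fn1 had them far upstream. The 4 Eln peaks were all within 50 kb of the TSS (chromosome 5, minus strand, gene 134702593 to 134747323). They scored 13.1, 17.0 and 23.7 at 24.17, 1.08 and 7.109 kb upstream, and 24.3 at 18.68 kb downstream in an Eln intron. The 3 upstream peaks fell in introns of Gm30003, an antisense transcript annotated beside Eln. The peak 1.08 kb upstream (134748297 to 134748509) was the 1 of the 4 without a forkhead core, and the peak of 13.1 held 3 matches. Fn1 (chromosome 1, minus strand, 71585520 to 71653200) had no peak inside the gene, and all 7 were upstream. The nearest was 28.89 kb away (71681989 to 71682201, score 28.4), and the others were between 135.6 and 240.5 kb away, in the interval before Mreg, whose TSS is 559.1 kb from that of Fn1. Their scores were 10.1, 11.2, 12.0, 13.4, 16.0 and 30.3. The highest, 154.5 kb upstream (71807639 to 71807851), held GTAAACA 7 bp from the midpoint. The peak of 10.1, the farthest, had the lowest score that occurs anywhere in the list. The core was present in 6 of the 7 Fn1 peaks, where 72.5% of all peaks held it.

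**Figure D3:**
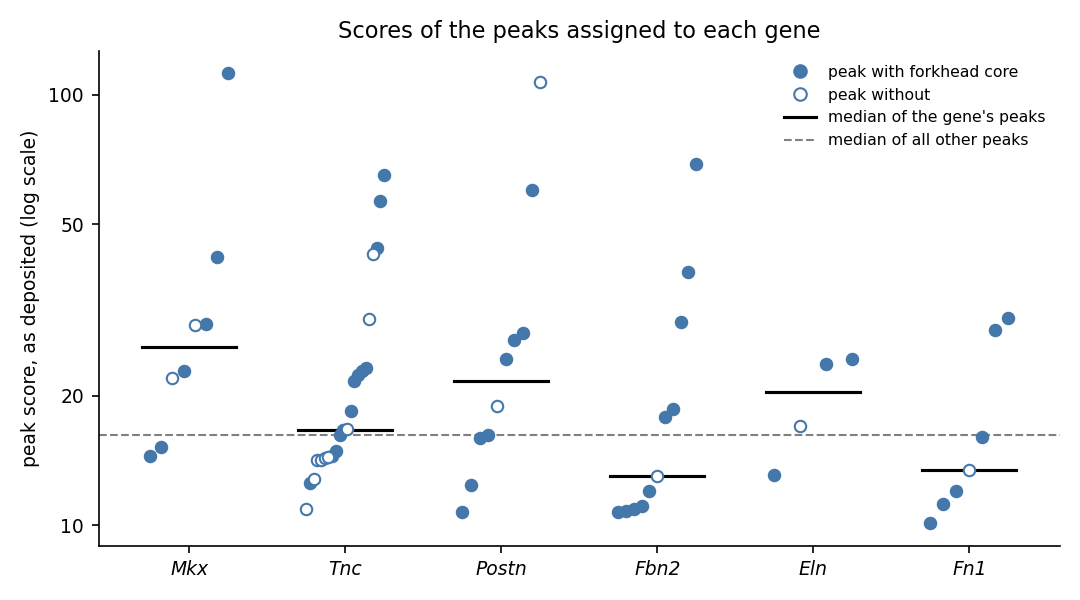
Score of each assigned peak, as deposited, on a log axis, by gene; filled points hold the forkhead core, open points do not, black lines are each gene's median and the dashed line is the median of all other peaks, 16.2. Mkx and Postn have the highest single peaks at 112.2 and 107.0, of which the Postn one is open, and the medians of Fbn2 and Fn1 lie below the dashed line.

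The 62 peaks as a set scored close to the rest of the list. Their median was 17.4 (exact 95% interval 14.9 to 22.8, n = 62), against 16.2 for the other 25642 peaks (interval 16.0 to 16.3). Of the 62, 10 were in the highest-scored decile of the list (16.1%), as were 9.98% of the other peaks. They belonged to 4 genes: Tnc with 4, and Mkx, Postn and Fbn2 with 2 each. No Eln or Fn1 peak was among them, the highest of those genes being 24.3 and 30.3 against a decile boundary of 38.7.

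The peaks of these genes were farther from the nearest protein-coding TSS than the rest. Territory limits this distance, and its median was 47.0 kb over all protein-coding genes. Tnc, Fbn2 and Fn1, which held 22, 11 and 7 of the 62 peaks, had territories of 645, 339 and 328 kb. The distances and promoter shares below were not matched for territory. The median distance was 99.8 kb, against 51.2 kb for the other peaks, and 4.84% lay within 10 kb of such a TSS, against 20.9%. With TSSs of every gene type counted, 24.2% lay within 10 kb, against 36.7%. By annotation, 31 of the 62 were intergenic (interval 37.0% to 63.0%), against 40.6% of the other peaks. Introns held 25 (40.3%, interval 28.1 to 53.6), against 45.4%. Promoters, reaching 1000 bp before and 100 bp after the TSS of a gene of any type, held 3, where 8.52% of all peaks lay in a promoter. With promoters from 2000 bp before to 500 bp after the TSS there were 6 (9.68%), against 12.8% of the other peaks, and with protein-coding TSSs only there was 1 (1.61%), against 6.29%. Besides the peak at the Mkx TSS, the 3 were the peak at 8030451A03Rik inside Tnc and an upstream Mkx peak at a processed pseudogene. Of the 62, 15 lay inside the gene they were assigned to, a share that was not computed for the other peaks. Neighbouring peaks of the same gene were within 10 kb of each other in 21 of 56 cases (37.5%), against 29.6% over the other genes. The median GC content of the windows was 41.5%, against 43.5%, and repeat-masked bases were a mean of 11.3%, against 13.1%. The deposited sharpness fraction had a median of 0.782, against 0.783.

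The forkhead core was found in the 200 bp window of 46 of the 62 peaks (74.2%, interval 61.5 to 84.5), where 72.5% of all peaks held it. Windows of the same width 2000 bp to either side of the 62 peaks held it in 19.4%. The core was thus about as frequent in these peaks as in the list at large, and more frequent at the midpoints than beside them. There were 32 peaks with 1 match, 11 with 2 and 3 with 3 or more. Among the 25642 other peaks the numbers were 13145, 4297 and 1153. Of the 63 matches, 32 (50.8%) lay within 20 bp of the midpoint, against 58.0% in the other peaks. ATAAACA made up 54.0% of the matches, against 44.6% in the other peaks, GTAAACA 22.2% against 29.4%, GTAAATA 14.3% against 10.3% and ATAAATA 9.52% against 15.7%. The strict form GTAAACA was present in 12 of the 62 peaks (19.4%, interval 10.4 to 31.4), where 27.4% of all peaks held it, a share inside the interval. Mkx accounted for 4 of those 12 peaks, Tnc for 3, Postn for 2, and Fbn2, Eln and Fn1 for 1 each.

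E-boxes, the sequences of basic helix-loop-helix factors such as Twist and Scx, were the next most frequent. CATCTG was in 23 of the 62 peaks (37.1%, interval 25.2 to 50.3), where 28.0% of all peaks and 12.9% of the flanks of these peaks held it. CAGCTG was in 11 (17.7%, interval 9.20 to 29.5), where 18.7% of all peaks held it. The TALE homeodomain sequence TGACAG was also in 11, where 17.9% of all peaks held it. The TEAD sequence, ACATTCC or GCATTCC, was in 8, where 9.75% of all peaks held it, and the SMAD sequence GTCTGNC in 6, where 11.6% did. Each of these shares in all peaks lay inside the interval of the 62. The EGR sequence, GCGTGGGCG or GCGGGGGCG, and the GLI sequence TGGGTGGTC were in none of the 62, where 0.237% and 0.319% of all peaks held them. Counts of 0 of 62 allow a share of up to 5.78% (exact interval). The CArG box of SRF was in 1, a Tnc peak, where 0.833% of all peaks held it. The palindrome GTCTAGAC, a SMAD sequence, was also in 1, a Fn1 peak of 16.0, where 0.202% of all peaks held it. The homeodomain sequence TAATTA was in 2, where 6.07% of all peaks held it. The AP-1 sequence, TGACTCA or TGAGTCA, was in 2, where 3.15% did, and the RUNX sequence, TGTGGTC or TGTGGTT, in 5, where 7.68% did.

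**Figure D4:**
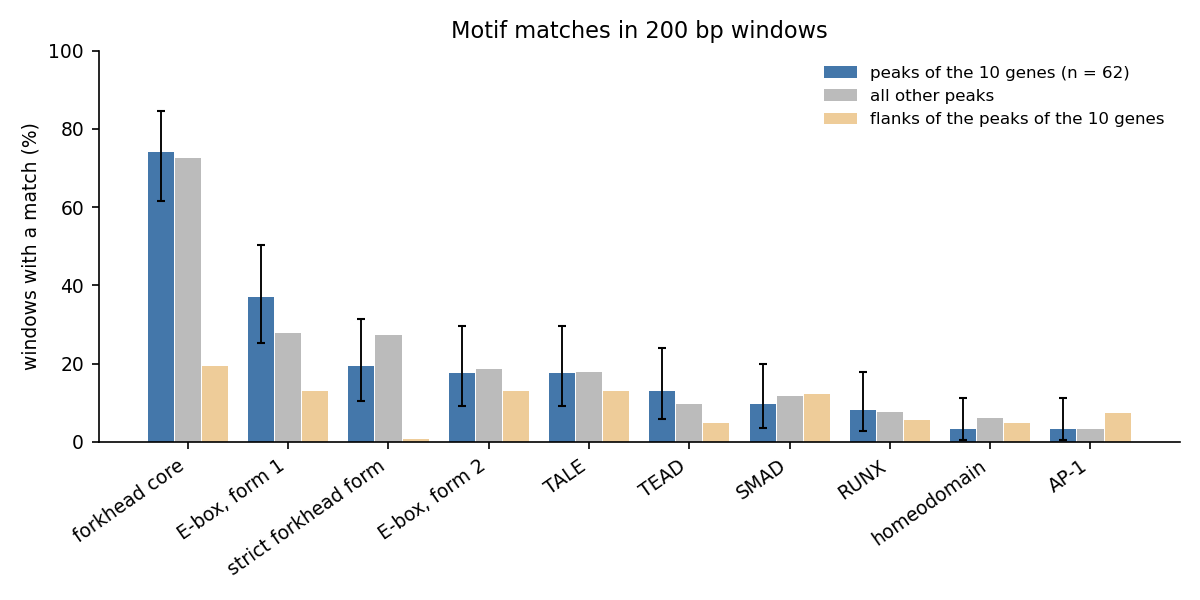
Share of 200 bp windows with at least 1 match (percent), for the 62 peaks (blue, with exact 95% intervals), all other peaks (grey) and the flanks of the 62 peaks (tan); E-box form 1 is CATCTG and form 2 is CAGCTG. The forkhead core stands at 74.2%, 72.5% and 19.4%, and for every motif drawn the grey bar ends within the interval of the blue one.

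Of 55 other genes listed for elastic fibres, matricellular proteins, tendon and the EGR family, 37 had at least 1 peak (67.3%), with a median of 2 peaks per gene, where 37.3% of all protein-coding genes had a peak and the median was 0. These lists were not matched for territory. They were also chosen with earlier results of these data known, so the shares are a description and not independent support for enrichment. Elastic fibre assembly genes had peaks at 12 of 19, led by Ltbp1, which binds latent TGF-beta and fibrillin, with 15, the fibulin genes Efemp1 and Fbln1 with 7 and 5, and Ltbp2 with 4. Lox and Loxl2, which encode enzymes that crosslink elastin and collagen, had none, nor did Fbln2, Efemp2, Emilin1, Loxl3 and Ltbp3. Fbln5, needed for elastic fibre assembly, and Mfap5, a microfibril protein, each had 1 peak, at 84 and 65 bp from the TSS.

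Matricellular and adhesive matrix genes had peaks at 11 of 17. Thbs2 had 11, the highest at 61.5, and Ccn2, encoding connective tissue growth factor, had 9, the highest 1.12 kb upstream of its TSS at 41.3. Thbs1 had 7 and Tgfbi 6. Tnr, another tenascin gene, had 4, or 0.78 per 100 kb, against 3.41 for Tnc and 0.809 pooled over the territory decile of Tnc. Densities in this list ran between 0 and 7.77 per 100 kb, the highest at Tgfbi. The tenascin genes Tnn and Tnxb had none, nor did Sparc, Comp, Ccn3 and Vtn.

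Tendon and connective tissue regulators and markers had peaks at 12 of 14, with 23 at Tcf7l2, 18 at Osr1, 13 at Irx1 and 8 at Six2. Tnmd, encoding the tendon membrane protein tenomodulin, had 2 peaks, the higher (19.8) 3.48 kb downstream of its TSS. Cilp and Gdf5 had none. Of the EGR family and its corepressors, Egr3 had 2 peaks and Wt1 had 1, while Egr4, Nab1 and Nab2 had none. The forkhead core was in 29 of 43 peaks at elastic fibre genes (67.4%), 44 of 56 at matricellular genes (78.6%), 67 of 82 at tendon and connective tissue genes (81.7%) and 2 of 3 at EGR family genes, where 72.5% of all peaks held it, and the differences between the lists were not tested.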

How the data were processed

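FLAG ChIP-seq peaks of mouse tongue at E12.5 were used as deposited by the authors in 1 list of 25707 peaks, each 212 bp between start and end. Alignment to mm10 used Bowtie2 (2.4.1), with SAMtools (1.7.1), and peak calling used HOMER with the input as control, per the submitters' processing notes and the series' design. Not given in the sources used here are the HOMER version and parameters, read depth, and whether libraries were pooled. The score is the value deposited by the authors per peak, on an unstated scale, and served to rank and filter. A sharpness fraction per peak, also deposited by the authors, was summarised by its median. No column belonged to a library, so the planned ChIP against input comparison was not run.

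Peaks on unplaced sequence (3) were left out. Midpoints were assigned to the nearest TSS of a protein-coding gene in the GENCODE M21 basic set, and sequence came from the RefSeq copy of GRCm38, the build named mm10. Classes were taken in the order promoter, transcript end (100 bp before to 1000 bp after), coding exon, untranslated region, noncoding exon, intron, intergenic. Motifs were matched on both strands, overlaps included. Other gene lists were written from general knowledge. All 10 genes are named, with their highest, nearest and promoter peaks, and of each other list the up to 4 genes with most peaks and those without. The other single peaks and genes described were chosen after their values were seen. Members and lists were chosen with earlier results of these data known. Alternatives covered the peak list, assignment, distance, clustering, motif form, window and promoter width. The search and assignment were checked on simulated data. The scripts used pysam 0.24.0, scipy 1.17.1, pandas 2.3.3 and numpy 2.4.6 under Python 3.11.15, and figures matplotlib 3.10.9.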

Additional observations from a re-analysis of the deposited data

How the results depend on the processing

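The number of assigned peaks depended on how a peak was given to a gene. It was 62 as reported, 36 with scores at or above the list's median (1.61 per 100 kb, against 0.473 over all protein-coding genes), 31 within 100 kb of the TSS, 3 within 10 kb, and 12 when TSSs of every gene type competed, which by construction moves peaks to nearer annotations. The median score of those 12 was 24.0. Genes with a peak were 6 as reported, 2 within 10 kb (Mkx and Eln) and 4 with every gene type (Mkx, Tnc, Postn and Eln). Distance to gene bodies in place of TSSs gave 70 peaks at 7 genes, Fbn1 included, as did adding the peaks inside gene bodies, a setting chosen after the data were seen. The totals are equal but the peaks differ. By distance to gene bodies Mkx had 5 peaks in place of 8, while Fbn1 had 9, Postn 11 and Fbn2 12. The share of all protein-coding genes with a peak was not computed for the distance limits, every gene type or gene bodies. These counts of genes therefore stand without a background and cannot be called high or low. Of the 55 other genes, 28 had a peak with scores at or above the median, also added later. Of all protein-coding genes, 24.6% had such a peak. The lists were not matched for territory and were chosen with earlier results of these data known, so no enrichment is read from these shares. The promoter share, 4.84% as reported, was 9.68% with the wider promoter and 1.61% with protein-coding TSSs only, both within its interval. The forkhead share was 74.2% (72.5% in the other peaks), 19.4% for GTAAACA alone (27.4% in the other peaks) and between 64.5% and 77.8% under the other settings. The lowest, for a 100 bp window, stood against 68.2% in the other peaks. The highest, for scores at or above the list's median, stood against 78.4%. Within 100 kb of the TSS it was 74.2%, against 71.5%, and over the whole deposited peak 74.2%, against 72.8%. No paired analysis was possible because the list holds no values per library, and leaving out libraries was not run for the same reason.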

Other observations

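Of the 16 assigned peaks without the forkhead core, 4 held the shorter sequence TAAACA, a form searched after the sequences were seen. It was in 74.2% of the 62 peaks, 13.7% of their flanks and 71.4% of the other peaks. The median score was 18.5 for the 46 peaks with the core and 15.55 for the 16 without. Of the 10 assigned peaks in the highest-scored decile, 8 held the core, against 85.6% of the other peaks in that decile. The 2 without it were the highest Postn peak and a Tnc peak of 42.7. CATCTG was in 16 of the 46 peaks with the core and in 7 of the 16 without. Scores and CATCTG were not split by the core among the other peaks, so neither contrast can be called particular to these genes. Among the other peaks the core was in 78.4% of those scored at or above the list's median, against 72.5% of them all.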
